A study of Homo sapiens with 9 samples.

Results

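The genes that license, start and carry out DNA replication and those that drive cells from G1 into S phase were followed in SW480, a human colorectal carcinoma line carrying EGFP, and in SCP51 and SCP58, lines that each grew from 1 cell of it. The set held 42 genes, chosen by function, and all probe sets annotated to exactly 1 of these symbols were taken. These were 80 probe sets, of which 74 passed the filter on dim signals, and all 42 genes were measured, among 13598 genes tested. The labels give 3 biological replicates of the parent SW480/EGFP, of SCP51 (metastatic potential high) and of SCP58 (metastatic potential low), 9 arrays in all, from cultures in RPMI medium with serum and antibiotics, with no other treatment named. EGFP was carried by all 3 groups. Each metastatic class rested on 1 line grown from a single cell, so every difference below is between lines. Whether the biological replicates were grown apart is not described, so each p-value reflects array-to-array spread, which may be partly technical.

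Before S phase, the origin recognition complex with CDC6 and CDT1 loads the ring of MCM2 to MCM7 onto origins, an inactive helicase that S-phase kinases then switch on by adding CDC45 and the GINS complex. DNA polymerase alpha with primase lays down primers, the RFC clamp loader places the PCNA ring, and polymerases delta and epsilon extend the strands. Cyclin E with CDK2 and the E2F transcription factors control the entry into S phase, and many replication genes are known E2F targets, so their transcripts are commonly high in proliferating tumour cells.

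Promoter windows of 5 of the genes are shown because these genes carry the differences described below (CDC45 and PRIM1 in SCP51, CDT1 and CCNE1 in SCP58) or the narrowest intervals (PCNA). Each window runs from 250 bases before to 50 bases after the start of the gene, 300 bases in all, 5′ to 3′ on the strand of the gene, from RefSeq on GRCh38.p14, and the first listed window was taken where a gene had several. Capitals mark E2F words and CCAAT on either strand. The windows lie at chr22:19479670-19479969, plus strand (CDC45), chr12:56752274-56752573, minus strand (PRIM1), chr16:88803539-88803838, plus strand (CDT1), chr19:29811741-29812040, plus strand (CCNE1) and chr20:5126573-5126872, minus strand (PCNA).
CDC45: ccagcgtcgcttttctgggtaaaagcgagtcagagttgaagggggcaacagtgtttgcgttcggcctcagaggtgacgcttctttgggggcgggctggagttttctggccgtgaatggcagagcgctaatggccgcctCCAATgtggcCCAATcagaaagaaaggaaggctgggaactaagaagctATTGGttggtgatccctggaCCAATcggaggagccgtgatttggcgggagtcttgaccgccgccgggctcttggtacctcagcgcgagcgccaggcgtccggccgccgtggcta
PRIM1: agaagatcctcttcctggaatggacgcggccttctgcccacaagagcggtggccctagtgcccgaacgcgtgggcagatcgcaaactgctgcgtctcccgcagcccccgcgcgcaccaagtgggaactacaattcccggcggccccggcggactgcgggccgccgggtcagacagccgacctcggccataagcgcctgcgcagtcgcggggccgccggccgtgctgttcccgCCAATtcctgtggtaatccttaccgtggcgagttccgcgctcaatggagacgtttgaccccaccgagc
CDT1: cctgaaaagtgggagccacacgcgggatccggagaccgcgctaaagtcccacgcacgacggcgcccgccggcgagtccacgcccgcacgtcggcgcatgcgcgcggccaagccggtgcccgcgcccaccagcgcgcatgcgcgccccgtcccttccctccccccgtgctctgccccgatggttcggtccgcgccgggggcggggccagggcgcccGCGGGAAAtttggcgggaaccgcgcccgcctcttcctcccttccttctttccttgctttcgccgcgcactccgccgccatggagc
CCNE1: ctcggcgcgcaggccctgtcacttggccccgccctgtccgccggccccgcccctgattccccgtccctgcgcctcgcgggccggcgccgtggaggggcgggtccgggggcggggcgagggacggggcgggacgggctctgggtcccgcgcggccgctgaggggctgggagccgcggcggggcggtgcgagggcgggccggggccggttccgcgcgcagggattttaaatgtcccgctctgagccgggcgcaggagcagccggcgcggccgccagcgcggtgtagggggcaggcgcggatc
PCNA: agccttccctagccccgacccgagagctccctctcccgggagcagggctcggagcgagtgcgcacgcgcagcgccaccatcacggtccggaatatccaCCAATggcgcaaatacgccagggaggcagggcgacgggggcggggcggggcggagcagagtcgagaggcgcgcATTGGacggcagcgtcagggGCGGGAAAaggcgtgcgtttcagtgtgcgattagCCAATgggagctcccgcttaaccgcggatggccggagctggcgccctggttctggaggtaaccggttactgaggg

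The E2F words searched were TTTCCCGC, TTTGGCGC, TTTCGCGC and TTTGCCGC on both strands, some of which overlap each other on opposite strands. RefSeq windows were matched for 36 of the 42 genes by symbol. Of these, 18 (50%) held an E2F word, against 3.33% of 27305 promoter windows of the same length, 1 per gene. CCAAT, the word read by NF-Y, was found in 22 (61.1%), against 35.7% of all windows, and the GC box GGGCGG in 27 (75%), against 44.6%. TTTGAA, the core of the cell-cycle homology region of many mitotic genes, was found in 2 (5.56%; TOP2A and RRM1), against 15.4% of all windows. Among the windows shown, CDT1 and PCNA each held 1 E2F word, CDC45 held 4 CCAAT words and no E2F word of those searched, PRIM1 1 CCAAT word, and CCNE1 neither, though CCNE1 held 7 GC boxes. Close variants were not searched. TTTGGCGG, which differs from TTTGGCGC in its last base, stands unmarked in the CDC45 and CDT1 windows. All these matches are letters in a window and no more. The 42 genes lie on 18 chromosomes.

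Few of the replication genes, and few of all genes tested, were called between the lines. A gene was called where its limma p, after Benjamini-Hochberg adjustment across every gene tested, was under 0.05. Of the 42 genes 1 was called between SCP51 and SCP58, CDC45, lower in SCP51, in a comparison that called 4.08% of all genes (2.6% lower and 1.48% higher in SCP51). Between SCP51 and the parent limma called 0 of the 42 and 2.96% of all genes (1.58% lower, 1.38% higher). Between SCP58 and the parent it called 0 of the 42 and 0.14% of all genes (0.0735% lower, 0.0662% higher). At an unadjusted limma p under 0.05 there were 4 genes of the set between SCP51 and the parent, 3 between SCP58 and the parent and 6 between SCP51 and SCP58, each lower in the group named first. Over all genes the shares at that p were 19.6%, 8.6% and 21.3% in either direction and 13.1%, 3.29% and 14.6% in the lower direction. The groups did not overlap for 7 genes of the set between SCP51 and the parent, all lower (28.1% of all genes, 18.6% lower), for 4 between SCP58 and the parent, all lower (17% of all genes, 7.58% lower), and for 9 between SCP51 and SCP58, 8 of them lower (25.1% of all genes, 17.2% lower). With array weights limma called CDC45 lower in SCP51 against both the parent and SCP58, and CDT1, CCNE1, GINS3 and POLD1 lower in SCP58 than in the parent, where it called 9.97%, 11.2% and 9.94% of all genes in that order. Those weights ran from 0.17 on SCP51 replicate 1 to 5.23 on parent replicate 3. The other parent arrays had 1.17 and 0.80, and the SCP58 arrays 0.50, 2.57 and 0.95. On these arrays, fewer cells in S phase and less RNA per cell cannot be told apart.

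In sign, 40 of the 42 genes stood below 0 in SCP51 relative to the parent, as did 64% of all genes. Their median log2 difference was -0.19, against -0.10 for all genes, and 35 of the 42 lay below that median of all genes. Between SCP58 and the parent 26 of 42 stood below 0 (50.1% of all genes), with a median of -0.06 against 0.00. Between SCP51 and SCP58 it was 30 of 42 (65% of all genes), with a median of -0.14 against -0.11. The comparisons with the parent share its 3 arrays. The SCP51 mean was the lowest of the 3 groups for 30 genes and the SCP58 mean for the other 12. These are descriptions with no test. By the 95% interval of each fit, a 2-fold change in either direction lay outside the interval for 34 of 42 genes between SCP51 and the parent, for 38 between SCP58 and the parent and for 33 between SCP51 and SCP58 (78.8%, 85.8% and 77.8% of all genes).

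**Figure D1:**
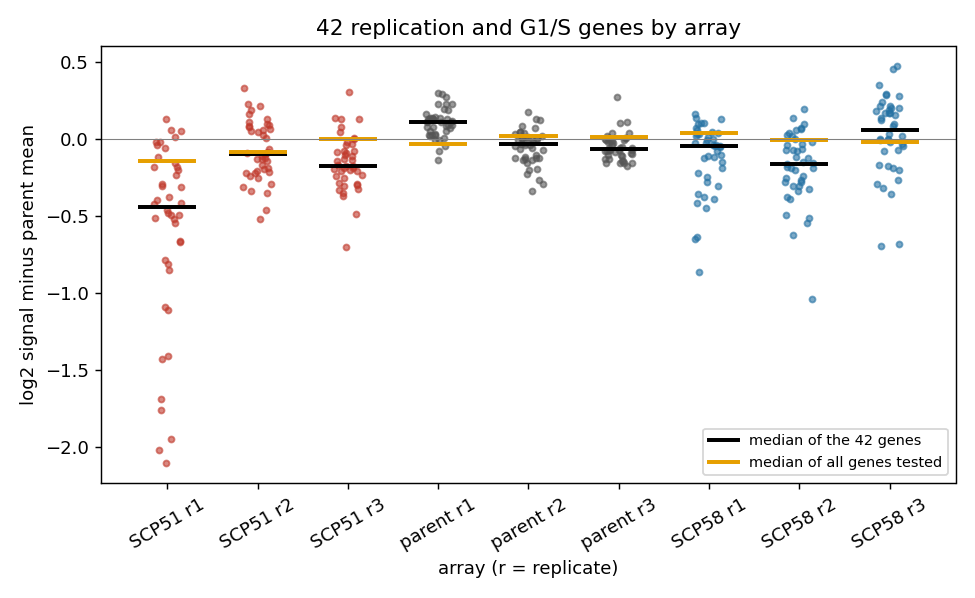
Each point is 1 of the 42 genes on 1 array, as its log2 signal minus the mean of the 3 parent arrays. Black lines are medians of the 42 genes (from -0.44 on SCP51 replicate 1 to 0.11 on parent replicate 1) and orange lines medians of all genes tested. The long lower tail belongs to SCP51 replicate 1.

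Array by array, relative to the parent mean, the median of the 42 genes was -0.44, -0.09 and -0.17 on the SCP51 arrays, 0.11, -0.04 and -0.06 on the parent arrays and -0.05, -0.16 and 0.06 on the SCP58 arrays. The SCP51 arrays thus lay below all parent arrays, and overlapped the SCP58 arrays. After subtracting each array's own median over all genes, the values were -0.30, -0.01 and -0.17 in SCP51 and 0.14, -0.06 and -0.08 in the parent, and the groups overlapped. Parent replicate 1 and SCP58 replicate 3 were the highest of the 9 arrays for 16 genes each. Without parent replicate 1 the median of the set was -0.14 between SCP51 and the parent, against -0.12 for all genes.

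Many of the low values in SCP51 came from 1 array. SCP51 replicate 1 was the lowest of the 9 arrays for 21 of the 42 genes. On it 11 genes (26.2%) lay at least 0.5 log2 units under each of the other 8 arrays, as did 12.3% of all genes. On each other array no gene of the set did, and at most 0.772% of all genes. Those 11 were RRM1, E2F1, RFC3, POLE2, GINS1, RPA1, MCM5, CDC45, POLA1, POLE and ORC6, in order of the gap, which ran from 1.77 to 0.51. This array also stood apart in general. Its correlation with the others across genes was 0.891 to 0.911, while the highest correlation of each other array was at least 0.973. The 3′ to 5′ signal ratio of its GAPDH control probe sets was 0.761, against 0.894 to 0.957 on the others, and that of beta-actin was 1.08, within the range of the others (0.938 to 1.16). The part of RNA or array quality in these gaps was not tested.

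Without SCP51 replicate 1, 34 of 42 genes stood below 0 between SCP51 and the parent (56.3% of all genes) with a median of -0.11, and 23 of 42 between SCP51 and SCP58 (57.4% of all genes) with a median of -0.02. In that fit CDC45 was the 1 gene of the set called in each of these comparisons (5.39% and 8.85% of all genes called). A 2-fold change in either direction then lay outside the 95% interval for 41 and 40 of the 42 genes (86.6% and 85.1% of all genes). The exceptions were GINS3 in the first comparison and CDC45 and GINS3 in the second. GINS3 and CDC6 were each represented there by another probe set, which became the brighter one once that array was left out, so their values are not the same measurement. GINS3 then stood at 0.91 between SCP51 and SCP58 with adjusted p = 0.268.

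**Figure D2:**
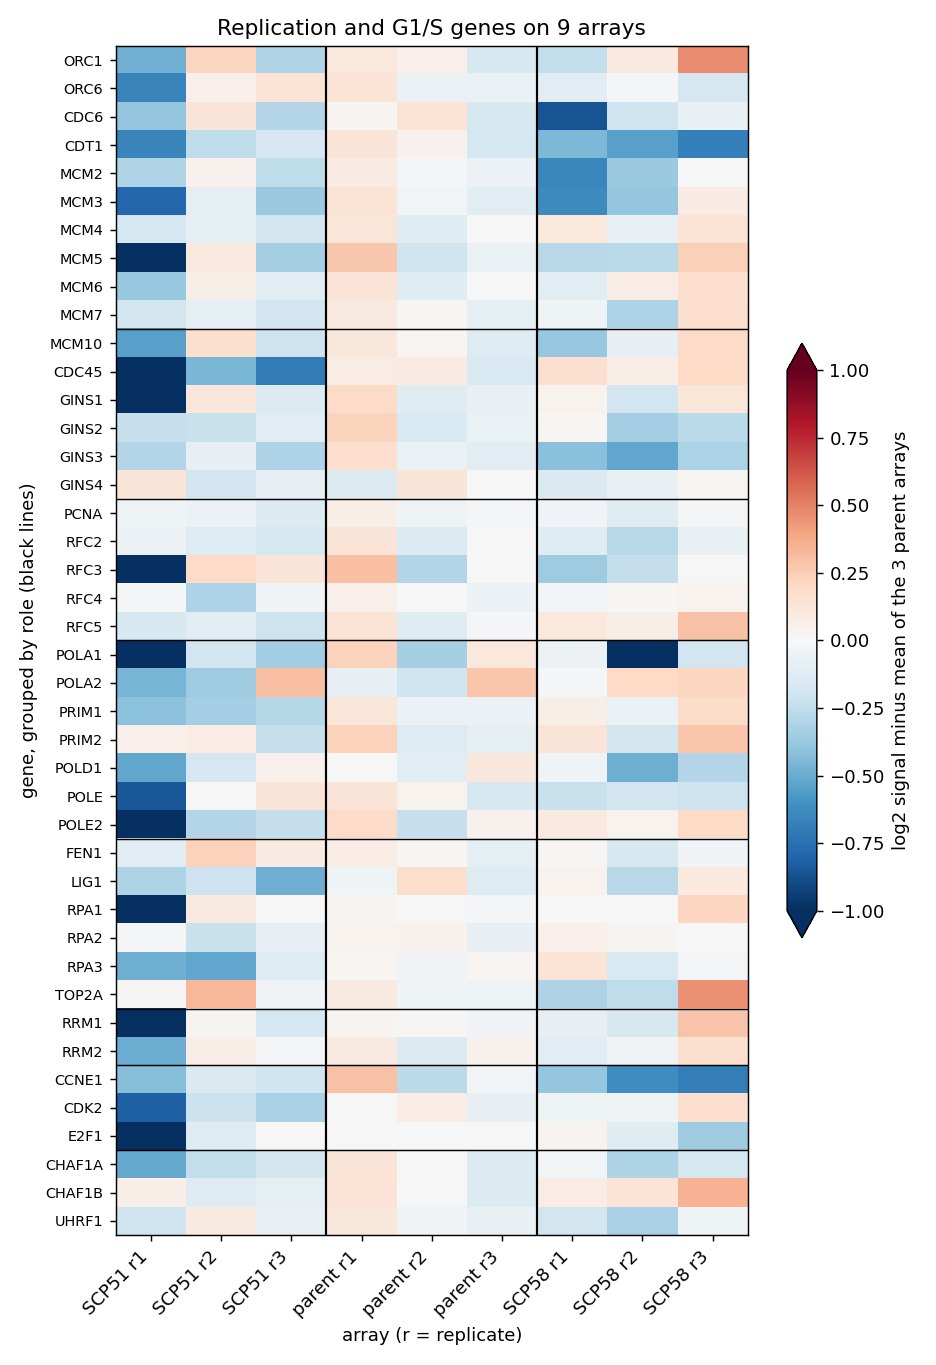
Rows are the 42 genes, grouped by role from origin licensing at the top to chromatin assembly at the bottom, and columns are the 9 arrays. Colour is the log2 signal minus the mean of the 3 parent arrays, cut at -1 and 1. SCP51 replicate 1 is the bluest column. CDC45, PRIM1, CDK2 and POLE2 are lower on each SCP51 array than on each other array, and further genes are also blue on all 3 SCP51 arrays.

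Among the genes of origin licensing, all 10 stood below 0 between SCP51 and the parent, between -0.44 and -0.14, and none was called in any comparison. ORC6 turned to 0.10 without SCP51 replicate 1. CDT1, which brings the MCM ring to origins and is held back by geminin after licensing, had log2 signals of 8.84, 9.25 and 9.33 in SCP51, 9.63, 9.54 and 9.33 in the parent and 9.05, 8.96 and 8.82 in SCP58. The SCP58 arrays lay below all parent arrays, and SCP51 overlapped both. CDT1 in SCP58 stood at -0.56 ± 0.16 relative to the parent on the log2 scale (± SE over 3 arrays in each group, with an adjusted p from limma of 0.336) and stood at -0.36 ± 0.16 in SCP51 (adjusted p = 0.256). Its other probe set gave -0.09 and -0.21. CDT1 was the gene of this role with the smallest p against the parent in both lines. With array weights it passed the test in SCP58 (-0.47, limma adjusted p = 0.0294), as did 9.94% of all genes.

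MCM2, a subunit of the helicase ring, had log2 signals of 10.19, 10.53 and 10.23 in SCP51, 10.57, 10.47 and 10.43 in the parent and 9.84, 10.11 and 10.48 in SCP58, with overlapping groups. Its differences were -0.17 ± 0.17 in SCP51 and -0.34 ± 0.17 in SCP58 relative to the parent (limma adjusted p = 0.594 and 0.672). MCM4, another subunit and 1 of the 2 genes of the set on chromosome 8, had 9.70, 9.79 and 9.69 in SCP51, 10.00, 9.76 and 9.88 in the parent and 9.98, 9.81 and 10.01 in SCP58. All SCP51 values of MCM4 lay below all SCP58 values, at -0.21 ± 0.11 (adjusted p = 0.322), one of the 9 separations named above. On chromosome 8, 473 genes had a median of -0.26 between SCP51 and SCP58, against -0.11 for all genes. The 5 kept probe sets of MCM4 were split in that comparison, at -0.21, -0.25, -0.25, 0.35 and 0.33. The other ring subunits stood between SCP51 and the parent at -0.42 (MCM3), -0.44 (MCM5), -0.14 (MCM6) and -0.16 (MCM7). Without SCP51 replicate 1 these values were -0.23, -0.12, -0.02 and -0.14. The origin-binding subunits ORC1 and ORC6 and the loader CDC6 stood at -0.19, -0.16 and -0.19, and in SCP58 at 0.11, -0.10 and -0.38. Without SCP51 replicate 1 ORC1 was at -0.04 in SCP51 and ORC6 at 0.10, and CDC6, by its other probe set, at -0.06.

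In helicase activation CDC45, the subunit that completes the active helicase, gave the one call. Its log2 signals were 6.21, 7.16 and 6.92 in SCP51, 7.69, 7.70 and 7.46 in the parent and 7.78, 7.68 and 7.82 in SCP58. Every SCP51 value lay below every value of the parent and of SCP58, which overlapped each other. The difference between SCP51 and SCP58 was -0.998 ± 0.22 (± SE over 3 arrays in each group, with an adjusted p from limma of 0.046), with a 95% interval of -1.51 to -0.49. Relative to the parent it was -0.86 ± 0.22 in SCP51 (adjusted p = 0.0878) and 0.14 ± 0.22 in SCP58 (adjusted p = 0.994). A single probe set measured CDC45. Without SCP51 replicate 1, the lowest array, the difference was -0.72 from SCP58 (adjusted p = 0.0158) and -0.58 from the parent (adjusted p = 0.0461), so it was smaller but passed the test in both. The call against SCP58 was lost without SCP51 replicate 3 (adjusted p = 0.0597), without any 1 parent array (0.0788, 0.0709 and 0.0819 for replicates 1, 2 and 3) and without any 1 SCP58 array (0.103, 0.142 and 0.129). It was kept in 8 of 19 alternatives, over which the difference ran from -1.20 to -0.72.

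GINS3, a subunit of the GINS complex, had log2 signals of 8.11, 8.32 and 8.10 in SCP51, 8.57, 8.34 and 8.30 in the parent and 7.99, 7.89 and 8.09 in SCP58. SCP58 lay below all parent and all SCP51 arrays, at -0.42 ± 0.13 relative to the parent (limma adjusted p = 0.367; 0.0381 with array weights). Its other probe set was more scattered, with 5.77, 8.61 and 8.51 in SCP51, 8.84, 8.43 and 8.66 in the parent and 8.26, 8.22 and 6.46 in SCP58. The other GINS subunits stood between SCP51 and the parent at -0.49 (GINS1), -0.19 (GINS2) and -0.05 (GINS4, on chromosome 8). GINS1 was at -0.01 without SCP51 replicate 1. MCM10, which acts when the helicase is switched on, stood at -0.20 in SCP51 (-0.02 without replicate 1) and -0.09 in SCP58 relative to the parent, where another of its probe sets gave -0.48. GINS4, on chromosome 8 like MCM4, differed by 0.02 ± 0.12 between SCP51 and SCP58.

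**Figure D3:**
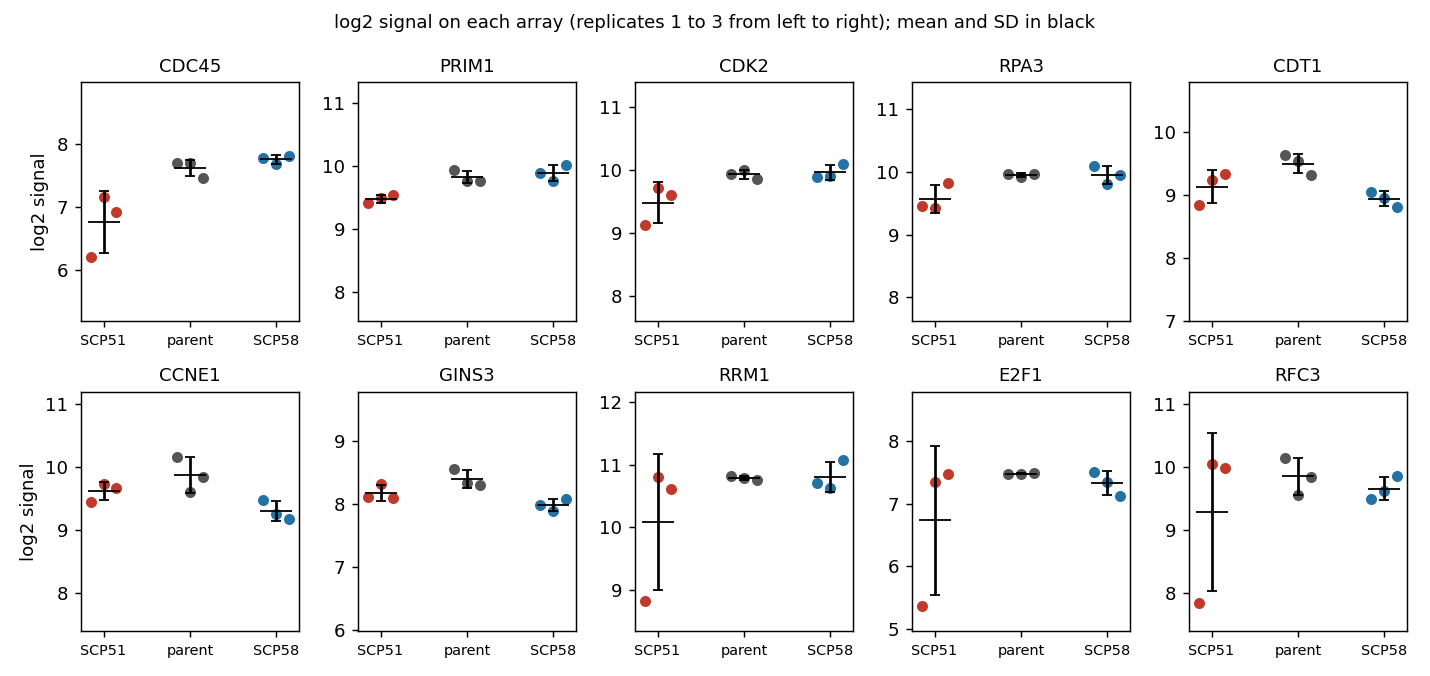
Each panel gives the log2 signal of 1 gene on the 9 arrays (replicates 1 to 3 from left to right within a group), with the group mean and SD in black; all panels span the same range of log2 units. CDC45, PRIM1 and CDK2 are low on all 3 SCP51 arrays, CDT1, CCNE1 and GINS3 on the SCP58 arrays, and RRM1, E2F1 and RFC3 on SCP51 replicate 1 alone.

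None of the 5 genes of the clamp and its loader was called by limma in any comparison, with 1 at an unadjusted p under 0.05, RFC5 between SCP51 and SCP58. PCNA, the sliding clamp that tethers polymerases to DNA, had log2 signals of 11.62, 11.60 and 11.53 in SCP51, 11.72, 11.62 and 11.65 in the parent and 11.63, 11.54 and 11.64 in SCP58, with overlapping groups. Its differences were -0.08 ± 0.06 in SCP51 and -0.06 ± 0.06 in SCP58 relative to the parent (limma adjusted p = 0.51 and 0.943), with 95% intervals of -0.22 to 0.07 and -0.20 to 0.09, the narrowest of the set. RFC5, a small subunit of the loader, had 9.71, 9.76 and 9.66 in SCP51, 10.00, 9.75 and 9.86 in the parent and 9.97, 9.93 and 10.16 in SCP58. SCP51 lay below SCP58 on every array, at -0.31 ± 0.11 (adjusted p = 0.164), while the parent overlapped both. RFC2 had 9.22, 9.14 and 9.09 in SCP51, 9.40, 9.14 and 9.28 in the parent and 9.15, 8.996 and 9.20 in SCP58, at -0.16 ± 0.12 in SCP58 relative to the parent (adjusted p = 0.848). RFC4 stood at -0.12 in SCP51 and 0.01 in SCP58. RFC3 had 7.83, 10.04 and 9.98 in SCP51, 10.15, 9.56 and 9.85 in the parent and 9.50, 9.61 and 9.85 in SCP58, and SCP51 replicate 1 set its value in SCP51, which was -0.56 with that array and 0.16 without it.

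Of the polymerases and primase, all 7 genes stood below 0 between SCP51 and the parent and none was called in any comparison. PRIM1, the catalytic primase subunit, had log2 signals of 9.41, 9.48 and 9.53 in SCP51, 9.94, 9.76 and 9.76 in the parent and 9.88, 9.76 and 10.01 in SCP58. All SCP51 values lay below all others, with an SD of 0.06 within SCP51. The difference was -0.41 ± 0.11 from SCP58 (limma adjusted p = 0.081) and -0.35 ± 0.11 from the parent (adjusted p = 0.143). Without SCP51 replicate 1 it was -0.37 and -0.31. PRIM2, the regulatory primase subunit, stood at -0.03 in SCP51 relative to the parent, and 4 further probe sets that name it with other genes were not used. POLE2, the second subunit of polymerase epsilon, had 7.54, 9.01 and 9.07 in SCP51, 9.49, 9.07 and 9.35 in the parent and 9.40, 9.34 and 9.51 in SCP58, and SCP51 lay below the other arrays throughout, though narrowly on replicate 3. Its difference from SCP58 was -0.88 ± 0.37 (adjusted p = 0.213) and -0.38 without SCP51 replicate 1. POLD1, the catalytic subunit of polymerase delta, had 6.36, 6.70 and 6.92 in SCP51, 6.87, 6.77 and 6.99 in the parent and 6.83, 6.38 and 6.58 in SCP58, at -0.27 ± 0.17 in SCP58 relative to the parent (adjusted p = 0.791; 0.0365 with array weights). POLE, the catalytic subunit of polymerase epsilon, stood at -0.24 in SCP51 and -0.20 in SCP58 relative to the parent, and in SCP51 turned to 0.07 without replicate 1. POLA1, the catalytic subunit of polymerase alpha, stood at -0.74 ± 0.42 and -0.43 ± 0.42, and its partner POLA2 at -0.17 and 0.14. With SCP51 replicate 1 left out POLA1 was at -0.27 in SCP51 relative to the parent, and between SCP51 and SCP58 it went from -0.32 to 0.16. POLA2 was at -0.02 and POLD1 at -0.06 in SCP51 without that array, against -0.21 for POLD1 with it. Another POLA2 probe set gave -0.27 in SCP51 relative to the parent.

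For the proteins that handle single strands, nicks and twist, RPA3, the small subunit of the single-strand binding complex RPA, had log2 signals of 9.46, 9.43 and 9.82 in SCP51, 9.97, 9.91 and 9.97 in the parent and 10.08, 9.80 and 9.94 in SCP58. SCP51 lay below the parent on every array, and replicate 3 overlapped SCP58. RPA3 stood at -0.38 ± 0.13 in SCP51 relative to the parent (limma adjusted p = 0.178), and at -0.33 without SCP51 replicate 1. FEN1, the nuclease that trims Okazaki fragment flaps, had 10.95, 11.29 and 11.14 in SCP51, 11.14, 11.08 and 10.98 in the parent and 11.08, 10.91 and 11.03 in SCP58, with overlapping groups and -0.06 ± 0.10 in SCP58 relative to the parent (adjusted p = 0.998). The other FEN1 probe set had 10.43, 10.60 and 10.30 in SCP51, 10.35, 10.24 and 10.18 in the parent and 9.77, 9.92 and 10.10 in SCP58, so that every SCP51 value and every parent value lay above every SCP58 value. In the fit of every probe set it stood at -0.33 ± 0.12 in SCP58 relative to the parent and 0.52 ± 0.12 between SCP51 and SCP58 (limma adjusted p = 0.521 and 0.0648). LIG1, the ligase that seals those fragments, stood at -0.34 ± 0.15 in SCP51 (adjusted p = 0.261) and was at -0.35 without replicate 1. RPA1 and RPA2 stood at -0.34 and -0.11, the former at 0.05 without that array. FEN1 and TOP2A, the type II topoisomerase of S phase to mitosis, were the 2 genes of the set above 0 between SCP51 and the parent, at 0.06 and 0.10.

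RRM1 and RRM2, the large and small subunits of the ribonucleotide reductase that makes deoxynucleotides, stood in SCP58 at 0.02 ± 0.44 and 0.01 ± 0.15 relative to the parent (limma adjusted p = 1 and 1). RRM1 had log2 signals of 8.84, 10.81 and 10.61 in SCP51, 10.81, 10.79 and 10.75 in the parent and 10.71, 10.62 and 11.07 in SCP58. A single array was low, and the difference between SCP51 and the parent went from -0.70 ± 0.44 (adjusted p = 0.407) to -0.07 without it. The other RRM1 probe set read 7.93, 8.71 and 10.01 in SCP51, 10.18, 10.27 and 10.11 in the parent and 9.26, 10.21 and 10.61 in SCP58. There SCP51 replicate 2 was low as well, and every SCP51 value lay below every parent value. In the fit of every probe set this one stood at -1.31 ± 0.51 in SCP51 relative to the parent (limma adjusted p = 0.237). RRM2 had 11.29, 11.85 and 11.76 in SCP51, 11.88, 11.65 and 11.83 in the parent and 11.68, 11.75 and 11.94 in SCP58, with overlapping groups. It stood at -0.15 ± 0.15 in SCP51 relative to the parent and at 0.02 without replicate 1. The other RRM2 probe set stood at -0.09 ± 0.22 in SCP51 and -0.35 ± 0.22 in SCP58 relative to the parent. Its groups overlapped as well. Between SCP51 and SCP58 it stood at 0.26 ± 0.22, against -0.16 ± 0.15 for the first.

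Of the G1/S regulators, CDK2, the kinase partner of cyclin E, had log2 signals of 9.12, 9.72 and 9.61 in SCP51, 9.94, 10.00 and 9.85 in the parent and 9.89, 9.90 and 10.10 in SCP58. Every SCP51 value was below every other. CDK2 stood at -0.45 ± 0.16 in SCP51 relative to the parent and -0.48 ± 0.16 relative to SCP58 (limma adjusted p = 0.185 and 0.137). Without replicate 1 these were -0.27 and -0.30. Another CDK2 probe set had 8.97, 8.83 and 8.70 in SCP51, 9.04, 9.25 and 8.81 in the parent and 8.78, 9.13 and 9.29 in SCP58. In the fit of every probe set it stood at -0.20 ± 0.18 and -0.24 ± 0.18, with overlapping groups. CCNE1, cyclin E1 itself, had 9.45, 9.73 and 9.67 in SCP51, 10.17, 9.61 and 9.84 in the parent and 9.48, 9.25 and 9.18 in SCP58. Here SCP58 lay below all parent arrays, at -0.57 ± 0.17 (adjusted p = 0.347; 0.0144 with array weights), and the SCP51 mean lay between, at -0.26 ± 0.17 from the parent. E2F1, the transcription factor that RB holds back in G1, had 5.37, 7.35 and 7.48 in SCP51, 7.47, 7.48 and 7.48 in the parent and 7.51, 7.35 and 7.12 in SCP58. Apart from SCP51 replicate 1 these 8 values spanned 7.12 to 7.51. E2F1 stood at -0.74 ± 0.48 in SCP51 relative to the parent (adjusted p = 0.413), at -0.06 without that array, and at -0.15 ± 0.48 in SCP58. The other E2F1 probe set had 6.03, 6.15 and 6.62 in SCP51, where replicate 1 was not far under the rest.

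Among genes of chromatin assembly and maintenance, CHAF1A and CHAF1B encode subunits of the CAF-1 complex that deposits histones behind the fork. CHAF1A had log2 signals of 8.45, 8.72 and 8.78 in SCP51, 9.10, 8.97 and 8.82 in the parent and 8.94, 8.66 and 8.79 in SCP58, with SCP51 below the parent on every array, at -0.31 ± 0.14 (limma adjusted p = 0.266). Its 4 kept probe sets were all below 0 in that comparison, from -0.59 to -0.22, and all below 0 between SCP58 and the parent, from -0.42 to -0.17. CHAF1B had 8.38, 8.19 and 8.23 in SCP51, 8.46, 8.32 and 8.18 in the parent and 8.39, 8.46 and 8.67 in SCP58, with SCP51 below SCP58 on every array, at -0.24 ± 0.13 (adjusted p = 0.334). UHRF1, which carries DNA methylation through replication, had 10.74, 11.03 and 10.87 in SCP51, 11.05, 10.91 and 10.87 in the parent and 10.76, 10.62 and 10.90 in SCP58, with overlapping groups and -0.19 ± 0.11 in SCP58 relative to the parent (adjusted p = 0.779). In SCP51 UHRF1 stood at -0.06, and at 0.0044 without replicate 1.

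**Figure D4:**
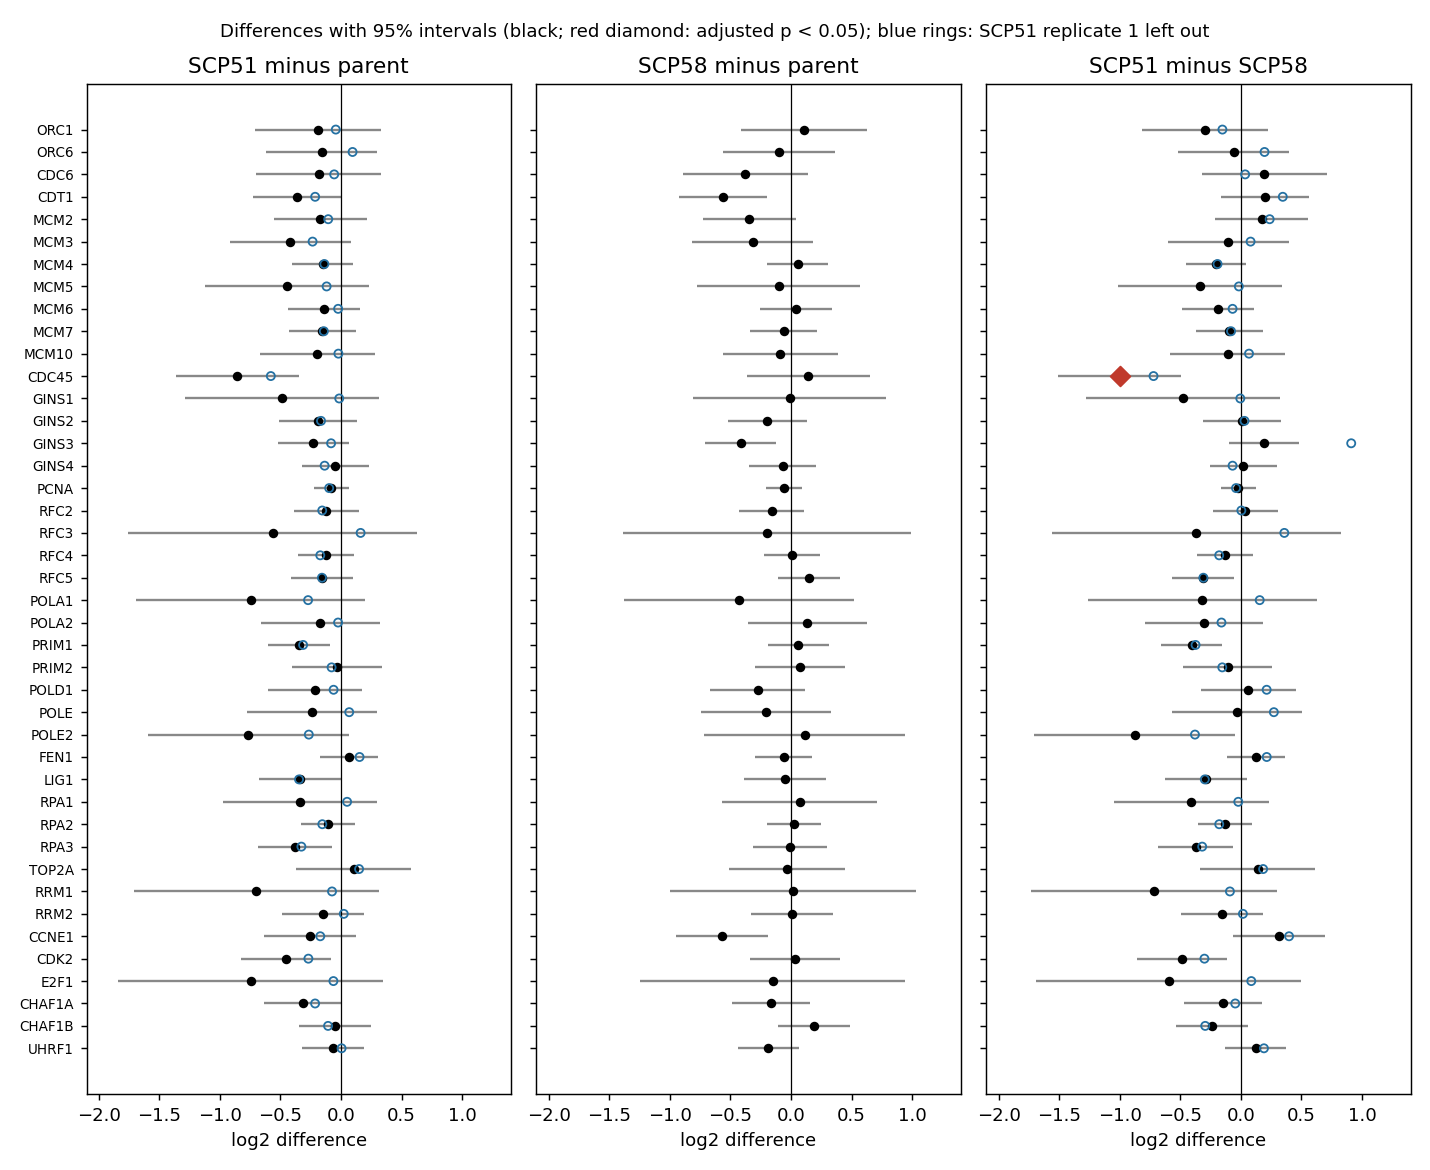
Points are log2 differences for the 42 genes in the 3 comparisons, with 95% intervals from the limma fit; the red diamond marks CDC45, the call between SCP51 and SCP58. Blue rings give the values without SCP51 replicate 1, where CDC45 is at -0.58 and -0.72; the rings of GINS3 and CDC6 come from another probe set than their points.

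Several genes were read by more than 1 probe set. Of the 22 genes with more than 1 kept probe set, 20 had all of them on one side of 0 between SCP51 and the parent, 12 between SCP58 and the parent and 11 between SCP51 and SCP58. On SCP51 replicate 1, 21 of the 74 probe sets (28.4%) lay at least 0.5 log2 units under every other array, as did 10.6% of all probe sets kept. For MCM5 and RRM1 this held for each probe set, and for 9 genes, CDC6, CHAF1A, E2F1, GINS3, MCM10, MCM4, RFC3, RFC5 and RPA1, for some of them. CDC6 read 7.51 on that array by its second probe set, where the other 8 arrays were at 9.66 or more, and by its first 9.54, above SCP58 replicate 1. MCM10 likewise read 5.06 by 1 of its 3 probe sets, with 7.39 or more on the others. When each probe set was tested by itself, CDC45 missed the threshold against SCP58 (limma adjusted p = 0.0522). The 1 called probe set then belonged to RFC3, a dim one with 5.68, 5.28 and 5.27 in SCP51, 5.54, 5.83 and 5.60 in the parent and 6.11, 6.17 and 6.12 in SCP58, at -0.72 ± 0.14 (adjusted p = 0.0368). The 2 brighter RFC3 probe sets gave -0.37 and -0.06.

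Other genes of the same processes were taken as 6 lists of 127 genes, of which 121 were tested. Between SCP51 and the parent 84 of the 121 stood below 0 (64% of all genes), with a median of -0.11, and 1 was called lower and none higher (1.58% and 1.38% of all genes). The called gene was E2F2, an activating E2F, with 7.28, 7.70 and 7.99 in SCP51, 8.52, 8.45 and 8.39 in the parent and 8.16, 8.17 and 8.19 in SCP58 and a difference of -0.80 ± 0.17 (limma adjusted p = 0.049). All its SCP51 values lay below all others. Its call was kept in 8 of 19 alternatives. It was lost without SCP51 replicate 2 (0.131), without any 1 parent array (0.161, 0.144 and 0.151 for replicates 1, 2 and 3) or without any 1 SCP58 array (0.0743, 0.0913 and 0.0809). Between SCP58 and the parent 61 of 121 stood below 0 (50.1% of all genes) and none was called (0.14% of all genes). At an unadjusted limma p under 0.05 there were 10 lower and 5 higher, where 8.6% of all genes passed in either direction and 3.29% lower. At that p there were 23 lower and 4 higher between SCP51 and the parent (19.6% of all genes, 13.1% lower). Between SCP51 and SCP58 there were 20 lower and 8 higher (21.3% of all genes, 14.6% lower). Between SCP51 and SCP58 80 of 121 stood below 0 (65% of all genes) and 1 was called lower (2.6% of all genes), POLE4, a histone-fold subunit of polymerase epsilon, with 6.95, 7.10 and 7.41 in SCP51, 7.53, 7.84 and 7.52 in the parent and 8.14, 8.11 and 7.73 in SCP58 and a difference of -0.84 ± 0.17 (adjusted p = 0.036). That call was kept in 10 of 19 alternatives. It was lost without SCP51 replicate 2 (0.116), parent replicate 1 or 3 (0.0624 and 0.0699) or any 1 SCP58 array (0.0876, 0.144 and 0.0534 for replicates 1, 2 and 3).

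By list, 28 other replication factors (all tested) had 19 below 0 in SCP51 relative to the parent and 14 in SCP58. RECQL4, a helicase of replication initiation on chromosome 8, stood at -0.73 ± 0.20 in SCP51 (limma adjusted p = 0.108), and POLD2, a polymerase delta subunit, at -0.64 ± 0.22 in SCP58 (adjusted p = 0.444). Of 15 tested genes of nucleotide supply, 12 were below 0 in SCP51 and 8 in SCP58, none called. RRM2B, the p53-induced reductase subunit on chromosome 8, stood at -0.59 ± 0.15 between SCP51 and SCP58 (adjusted p = 0.0616). Among 28 tested G1/S regulators, 19 were below 0 in SCP51 and 18 in SCP58. At an unadjusted limma p under 0.05, 8 were lower and 2 higher in SCP51 (19.6% of all genes, 13.1% lower). In SCP58 4 were lower and 1 higher (8.6% of all genes, 3.29% lower). Between SCP51 and SCP58 4 were lower and 4 higher (21.3% of all genes, 14.6% lower). CDK6 had the largest rise of this list in SCP51, at 0.75, with every SCP51 value above every parent value, and was not called. MYBL2, an E2F target that itself drives cell-cycle genes, stood at -0.49 ± 0.11 in SCP51 (adjusted p = 0.0575), and the cyclin D kinase CDK4 at -0.33 ± 0.10 in SCP58 (adjusted p = 0.354). CKS1B, which helps degrade the inhibitor p27, stood at -0.57 ± 0.13 between SCP51 and SCP58 (adjusted p = 0.0546). In the list of 10 chromatin replication genes, 7 were below 0 in SCP51 and 9 in SCP58. The histone chaperone ASF1B stood at -0.77 ± 0.23 in SCP51 (adjusted p = 0.128). Of 10 tested S-phase checkpoint genes, 8 were below 0 in SCP51 and 5 in SCP58, and the helicase BLM stood at -0.55 ± 0.12 in SCP58 (adjusted p = 0.236).

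The 30 genes of G2 and mitosis, all tested, lay mostly above 0 in the SCP58 mean, with 7 below 0 and 23 above it relative to the parent. Their median was 0.11, none was called, and 50.1% of all genes were below 0. At an unadjusted limma p under 0.05 none was lower and 1 higher. The SCP58 arrays differed here. On replicates 1 and 3 most of these genes lay above the parent mean, and on replicate 2 most lay below it. CCNB1 had 10.77, 9.90 and 10.67 in SCP58 and 10.66, 10.39 and 10.53 in the parent. In SCP51 19 stood below 0 (64% of all genes), with a median of -0.09, none called, and 3 were lower and none higher at that p (13.1% of all genes lower). Between SCP51 and SCP58 22 of 30 stood below 0 (65% of all genes), none called, with 7 lower and none higher at an unadjusted limma p under 0.05 (14.6% of all genes lower). CDC25C, the phosphatase that starts mitosis, stood at -0.92 ± 0.22 there (adjusted p = 0.0545) and the spindle checkpoint kinase TTK at -0.54 ± 0.14 (adjusted p = 0.0655). Against the parent, TTK stood at 0.44 ± 0.14 in SCP58 (adjusted p = 0.376). No test was made of the lists as such.

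The markers of colorectal epithelium were mostly present. EPCAM, KRT8, KRT18, KRT19, CDH1, CDX2 and VIL1 lay above the array median on all 9 arrays, with CDX2 at a signal of 45.5 to 58.2 near it, and CDH17 did so on 3 arrays. The 8 summed to 18854 to 24447 in SCP51, 19942 to 20971 in the parent and 19182 to 21120 in SCP58. Of 6 fibroblast, 3 leukocyte and 4 endothelial markers measured, 1 each (COL1A1, CD3E and VWF) lay above the median throughout, at signals of 61.7 to 172, and PTPRC, CD14, LUM, COL1A2, COL3A1 and CDH5 were under it on every array. The fibroblast markers summed to 280 to 326 in SCP51, 325 to 345 in the parent, 280 to 326 in SCP58, the leukocyte markers to 111 to 138 in SCP51, 127 to 145 in the parent, 117 to 135 in SCP58, and the endothelial markers to 140 to 176 in SCP51, 157 to 193 in the parent, 162 to 179 in SCP58. The part of these in the results was not tested. The median signal of an array was 41.2 at the lowest and 44.3 at the highest. The 75th percentile of the signals was 112.5 on SCP51 replicate 1 and 123.4 to 130.8 on the other arrays.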

How the data were processed

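Total RNA was made into biotin-labelled cRNA with an Affymetrix kit for arrays, per the labels' protocols. The authors deposited 1 linear intensity for each of 54675 probe sets and array. The submitters' processing notes name GCOS 1.4. How it scaled the arrays, corrected background and combined probes is not given in the sources used here, and detection calls were not used. The deposited values were raised to at least 1 (514 lay below) before log2, without rescaling. The 62 control probe sets were left out, and 29166 probe sets that exceeded the array median on 3 or more of the 9 arrays were kept. Symbols came from the platform annotation (41091 probe sets with 1 symbol, 1801 with several, 11721 with none), updated through Entrez identifiers in RefSeq's GRCh38.p14 table (99.9% matched). Each gene was represented by its probe set with the highest mean.

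limma 3.58.1 (R 4.3.3) fitted 1 mean per group to all 9 arrays with an intensity trend, and p-values were adjusted over 13598 genes. The fit was tested on simulated data. The number of arrays limits the precision. The genes, lists, tests and alternatives were chosen with earlier results of these data known. Every gene of the set is named; values on each array are given for called genes, for the smallest p in each role and comparison, for MCM2, PCNA, CCNE1, CDK2 and E2F1 and, chosen after their values were seen, for RFC3 and POLE2. Same-numbered arrays of different lines were compared for pairing. The alternatives were other filters, scalings, an offset of 32, other variance models, other uses of probe sets, fewer arrays and a replicate block. Figures were drawn with matplotlib 3.10.9.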

Additional observations from a re-analysis of the deposited data

Results flagged for a closer look

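CDC45 was called between the lines themselves. The test of the difference between their changes from the shared parent is the comparison of SCP51 with SCP58. It gave -0.998 ± 0.22 on the log2 scale (± SE over 3 arrays in each group, with an adjusted p from limma of 0.046). In it, 3 of 3 SCP51 arrays lay below all SCP58 arrays, as for 17.2% of all genes, and 4.08% of all genes were called. The call was kept in 8 of 19 alternatives.

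A GINS2 probe set that the filter on dim signals left out of the tests had a signal of 137 on SCP51 replicate 1 and 112 on SCP58 replicate 1, against 16.8 to 18.8 on the parent arrays and 15.8 to 20.4 on the other arrays of both lines. On those 2 arrays the 2 kept, brighter GINS2 probe sets had log2 signals of 9.66 and 9.91, and of 8.59 and 8.46. All of these lay within the range of the same probe set on the other arrays.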

How the results depend on the processing

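The call of CDC45 between SCP51 and SCP58 was kept in 8 of the 19 alternatives run. Its sign stayed the same in all of them, which arrays that do not overlap made likely beforehand. Without SCP51 replicate 1, 6 of the 42 genes changed sign between SCP51 and the parent and 9 between SCP51 and SCP58. Between SCP51 and SCP58 the 1 called gene became 0 with no filter, averaged probe sets, the 6 arrays compared, the replicate block or an adjusted p under 0.01, and ranged from 0 to 1 over single arrays left out. Between SCP51 and the parent 0 called genes became 1 with array weights, and over single arrays left out the count ranged from 0 to 1. Between SCP58 and the parent it became 4 with array weights and was 0 with each array left out. Medians of the set ranged from -0.30 to -0.11, from -0.09 to -0.0049 and from -0.21 to -0.02 over single arrays left out, in the order SCP51 against the parent, SCP58 against the parent and SCP51 against SCP58.

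Rescaling moved the sign counts: 37 of 42 genes were below 0 between SCP51 and the parent after quantile normalization or with arrays centred on their 75th percentile, with 56.4% and 56% of all genes below 0. Calls over all genes fell from 555 to 210 (SCP51 against SCP58), from 402 to 167 (SCP51 against the parent) and from 19 to 6 (SCP58 against the parent) when the replicate number entered as a block, and CDC45 then had an adjusted p of 0.0894 against SCP58. With array weights they were 1527, 1356 and 1351, and with the 6 arrays compared 173, 184 and 37. Same-numbered arrays of different groups correlated in their deviations from the group means at -0.22 to 0.13 across genes, so the numbers were not taken to pair the arrays. Without the chromosome 8 genes the medians were -0.20, -0.06 and -0.14 in the same order. The calls of E2F2 and POLE4 were also lost with no filter (adjusted p = 0.0675 and 0.0531), with the replicate block (0.109 and 0.0863) and with the 6 arrays compared (0.13 and 0.0978), and that of E2F2 with averaged probe sets (0.0999). Over the 42 genes the median SE of a difference was 0.16, which limits how small a change could be called with 3 arrays in each group.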

Other observations

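Split by the promoter words, the 18 genes with an E2F word had a median log2 difference of -0.19 between SCP58 and the parent, with 15 below 0, and the 18 without one a median of 0.01, with 8 below 0. Between SCP51 and the parent the medians were -0.23 and -0.17, and between SCP51 and SCP58 -0.10 and -0.14. The split used only the exact words searched. It was made after the values were seen and is given as a description with no test.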
